A study of Caenorhabditis elegans with 4 samples.

Results

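The COH-3 peaks of Caenorhabditis elegans chromosome III are described here. They are all entries on that chromosome in the peak list deposited for the whole series, 1909 of 9643 peaks in all. Each was chosen by chromosome alone, without regard to its score or width. Chromatin immunoprecipitation followed by sequencing (ChIP-seq) had been carried out with 2 COH-3 ChIP libraries and 2 input DNA libraries. Every library came from hermaphrodites of the strain fem-2(b245), whose genotype label places the allele on chromosome III, cultured at 20 degrees Celsius. The stage label names young adults that contain a germline, whereas the culture protocol describes gravid animals recovered by sucrose flotation. Whole worms were used, so germline and somatic nuclei were mixed, and no wild-type strain was among the samples. The antibody was an affinity-purified rabbit polyclonal against a COH-3 antigen, and whether it also binds the close relative COH-4 is not stated in the labels. The inputs had no peak list among the files analysed here. Replicates 1 and 2 below are the ChIP libraries. The labels do not say whether they came from separate cultures, so differences between them may be technical. Read depth is unknown.

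Cohesin is a ring-shaped complex that holds sister chromatids together, and its kleisin subunit closes the ring. COH-3 is a kleisin used in meiosis, where cohesin forms the axis of the paired chromosomes from which crossovers are made and released. The autosomes of C. elegans have a gene-dense centre in which crossovers are rare, flanked by arms that are richer in repeats and recombine more. Peak positions were therefore read against the left arm (up to 3.72 Mb), the centre and the right arm (from 10.34 Mb). Positions are on WormBase WS220 and each peak was placed by its midpoint. No genes are named, because the gene table at hand is on another assembly and coordinates of different builds were not combined.

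Chromosome III carried 593 peaks in the replicate 1 list, 777 in the replicate 2 list and 1909 in the whole-series list. These amount to 43.0, 56.4 and 138 peaks per Mb over a length of 13.8 Mb, which was taken to the end of the last peak. The peaks covered 3.20% of the chromosome in replicate 1, 2.93% in replicate 2 and 6.57% in the whole-series list. For the 4 other autosomes the covered share was 1.94% to 2.54% in replicate 1, 1.59% to 2.88% in replicate 2 and 3.38% to 5.88% in the whole-series list. Chromosome III was thus above the range of the other autosomes in all 3 lists. In replicate 2 a block of 46.7 kb described below took part of the covered share. Without it the share on III was 2.65%, inside the range, while the other lists stayed above the range at 3.21% and 6.38%. Only III was trimmed in this way. The other autosomes kept their own densest stretches, so the trimmed value and the range are not on equal terms. A single chromosome gives no spread of its own, so this order is a description and was not tested. In number of peaks per Mb, III ranked first in replicate 1 and second, after chromosome I, in replicate 2.

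Peaks on III were mostly narrow, with a minority of wide domains. Whole-series widths ran from 146 to 11772 bp with a median of 308 bp and quartiles of 204 and 492 bp. The 2 replicates differed in this respect, with medians of 565 bp in replicate 1 and 336 bp in replicate 2. Of the whole-series peaks on III, 710 (37.2%) were under 250 bp wide, while replicate 1 had 2 such peaks and replicate 2 had 186. At the other end, 65 whole-series peaks (3.4%) were 1.5 kb or wider, against 3.36% over the 6 nuclear chromosomes. Those 65 peaks made up 20.1% of all bases covered by peaks on III. Of them, 40 overlapped peaks of both replicates, 15 of replicate 2 only and 10 of replicate 1 only, so that each overlapped at least 1 replicate list. The same split is not given for the 324 such peaks over the 6 chromosomes, so it cannot be read as particular to III. Wider peaks scored higher, with a Spearman rho between width and score of 0.66 in the whole-series list, 0.85 in replicate 1 and 0.86 in replicate 2 (across 1909, 593 and 777 peaks, which are not independent replicates). The median whole-series width was 279 bp in the left arm, 318 bp in the centre and 296 bp in the right arm. Replicate 1 showed the same order with medians of 448, 581.5 and 491.5 bp, as did replicate 2 with 312.5, 353 and 326 bp.

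The centre held most of the whole-series peaks. It contained 1234 of the 1909 peaks (64.6%, exact binomial 95% interval 62.4 to 66.8) on 48.0% of the length, at 186 peaks per Mb. In the left arm there were 270 peaks, or 72.6 per Mb, and in the right arm 405, or 118 per Mb. The density in the centre was 1.98 times that of both arms together. The replicates differed widely in the size of this excess. Replicate 1 had 438 peaks in the centre, 55 in the left arm and 100 in the right arm, which gives 66.2, 14.8 and 29.0 per Mb and a ratio of 3.06. Replicate 2 had 401, 150 and 226 peaks, which gives 60.6, 40.3 and 65.6 per Mb and a ratio of 1.15. By number of peaks the replicates differed more in the arms, with 21.6 per Mb in replicate 1 and 52.5 in replicate 2, than in the centre. By bases covered they also differed in the centre, at 5.05% in replicate 1 and 3.10% in replicate 2. With 1 list per replicate there is no test of this difference.

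**Figure D1:**
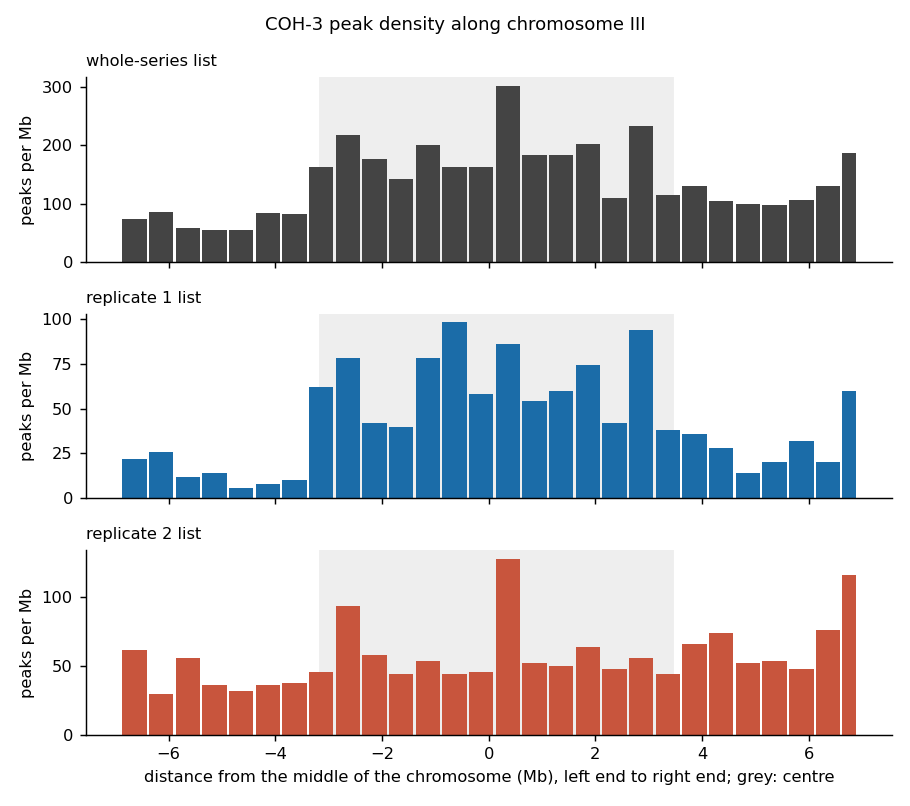
Peaks per Mb in windows of 0.5 Mb along chromosome III, one panel for each peak list; the horizontal axis is the distance from the middle of the chromosome in Mb, the grey band is the centre, and the last window is shorter. Replicate 1 drops at both edges of the centre, while replicate 2 shows no such drop at the right edge, and its tallest window, just right of the middle, held 64 of its peaks.

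The right arm was denser than the left arm in each list. The ratio was 1.62 in the whole-series list, 1.96 in replicate 1 and 1.63 in replicate 2. In replicate 2 the right arm, at 65.6 peaks per Mb, was also denser than the centre. The middle 33.3% of III was compared with the outer parts so that other chromosomes could be set beside it. By this measure the ratio on III was 1.98 in replicate 1, 1.09 in replicate 2 and 1.64 in the whole-series list. For the 4 other autosomes the ranges were 1.78 to 2.27, 0.76 to 1.04 and 1.51 to 1.73, respectively. Chromosome III thus lay within the range of the other autosomes in replicate 1 and in the whole-series list, and just above it in replicate 2. Without the block of 46.7 kb described below, the replicate 2 ratio on III was 0.96, within that range and below 1. Here too the block was left out on III only, and the range kept the densest stretches of the other autosomes.

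**Figure D2:**
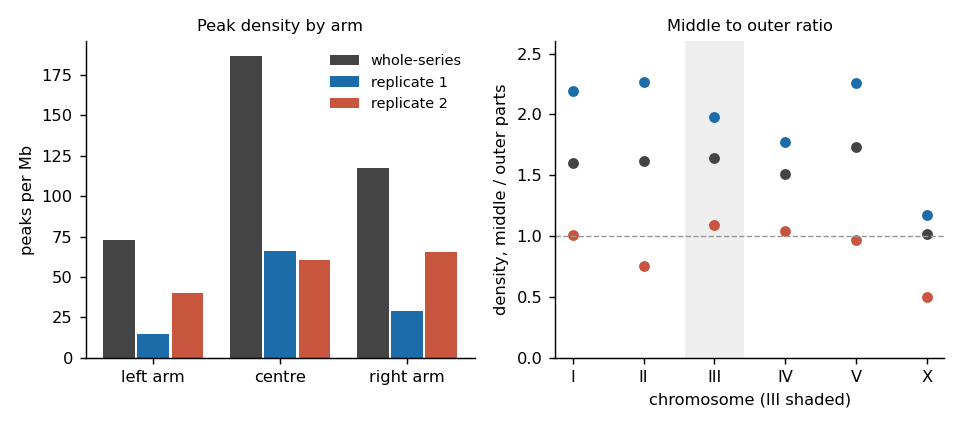
Left, peaks per Mb in the left arm, centre and right arm of chromosome III for the 3 lists. Right, the density of the middle 33.3% divided by that of the outer parts for each chromosome (points, 1 per list; dashed line, a ratio of 1). On III the 3 points lie at 1.98, 1.64 and 1.09, in the same order as on every other chromosome shown.

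Neighbouring whole-series peaks were closer together in the centre than in the arms. The gap between whole-series neighbours had a median of 2016.5 bp on III, with quartiles of 356.5 and 7586 bp and a range from 43 to 117021 bp. On the 4 other autosomes the whole-series median gap was 2378.5 to 3230 bp. By position the median was 1530 bp in the centre, 2587.5 bp in the right arm and 5973 bp in the left arm. Replicate 1 had medians of 4203 bp in the centre, 13908 bp in the right arm and 29492 bp in the left arm. In replicate 2 the centre, at 6486 bp, and the right arm, at 6203 bp, were close, and the left arm stood at 14519 bp. Over the whole chromosome the median gap was 5377 bp in replicate 1, within the 4747 to 8928 bp of the other autosomes, and 7389.5 bp in replicate 2, below their 7883 to 12443 bp. Spacing was uneven, since the SD of the whole-series gaps was 1.77 times their mean. The same ratio was 1.87 in replicate 1 and 1.43 in replicate 2. Of the 1908 whole-series gaps, 747 (39.2%) were 1 kb or shorter and 389 (20.4%) were over 10 kb.

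The 5 longest stretches of III without a whole-series peak included 3 in the centre. The longest, 117021 bp from 9111175 to 9228195 in the centre, and the next, 116946 bp from 12748267 to 12865212 in the right arm, had no peak in either replicate list. A gap of 95.2 kb in the centre, from 6710217 to 6805418, was also empty in both. The remaining 2, from 9963536 to 10051575 in the centre and from 1303049 to 1390107 in the left arm, had no replicate 1 peak. In the centre the only replicate 2 overlap was 6 bp at the gap's edge. In the left arm replicate 2 had 1 peak with its midpoint inside the gap and covered 312 bp of it.

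**Figure D3:**
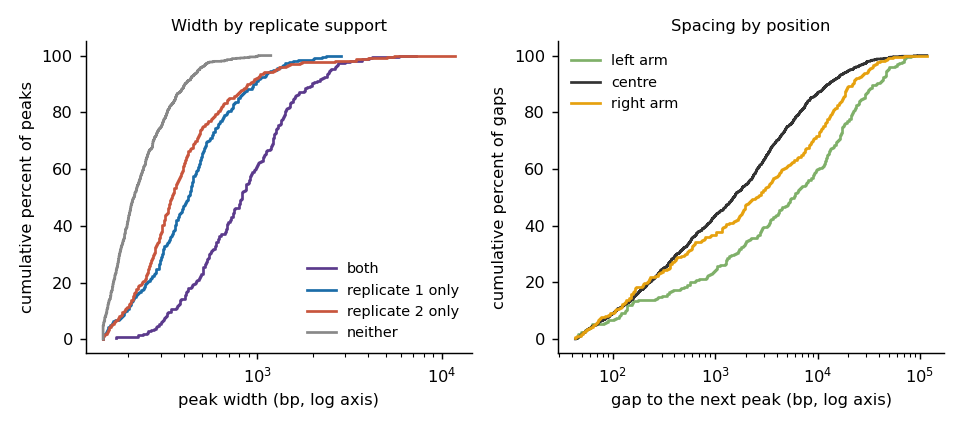
Cumulative percent of the whole-series peaks on III by width, by the replicate lists they overlap (left), and of the gaps to the next peak, by position (right); both horizontal axes are logarithmic. Peaks found in both lists are the widest (median 830.5 bp) and peaks found in neither the narrowest (215 bp); the curve for the centre lies to the left of both arms over most of its range.

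Counts in windows of 100 kb varied within the centre as well as between the centre and the arms. Over 137 full windows the whole-series count ranged from 1 to 50 with a median of 12. The median was 6 in the left arm, 19 in the centre and 11.5 in the right arm. The variance of the counts was 4.73 times their mean in the centre, 2.83 times in the left arm and 2.25 times in the right arm. Within the centre alone the counts ranged from 2 to 50. Replicate 1 had no peak in 23 of the 137 windows, 12 of them in the left arm, and replicate 2 had none in 3. Between the replicates the window counts had a Spearman rho of 0.44 and a Pearson r of 0.31 over the chromosome (137 windows of the same 2 libraries, a description). Within the centre alone rho was 0.48 (66 windows), in the left arm 0.53 (37 windows) and in the right arm 0.35 (34 windows).

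The 5 densest windows all lay in the centre. The window from 7400001 to 7500000 held 50 whole-series peaks, with 1 peak of replicate 1 and 35 of replicate 2. From 7100001 to 7200000 there were 40, with 17 of replicate 1 and 15 of replicate 2. Next came 35 peaks from 4200001 to 4300000, with 12 and 19 in the replicates. The remaining 2 windows, from 8300001 to 8400000 and from 9800001 to 9900000, had 33 and 32. Replicate 1 and replicate 2 contributed 8 and 7 peaks to the former, and 16 and 6 to the latter. The densest window was thus filled almost entirely from replicate 2, whereas the next 4 had peaks of both. At the other extreme, 8 windows had 2 peaks or fewer, of which 3 lay in the left arm, 3 in the centre and 2 in the right arm. The emptiest, from 1100001 to 1200000 in the left arm, had 1 whole-series peak although replicate 2 had 4 there.

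Local clusters, defined as runs of at least 4 whole-series peaks with gaps of at most 1 kb, were densest in the centre. There were 82 of them, which held 447 peaks (23.4% of those on III), with 62 in the centre, 17 in the right arm and 3 in the left arm. This amounts to 9.37 clusters per Mb in the centre, 4.94 in the right arm and 0.81 in the left arm. A cluster had 4 to 15 peaks (median 5) and spanned 1.17 to 15.0 kb (median 3.52 kb). Clusters found in the same way within the replicate lists differed. Replicate 1 had 18 in the centre, 1 in the right arm and none in the left arm, whereas replicate 2 had 5, 7 and 1, so that its right arm was the densest in clusters. Chromosome III had 4.30 clusters per 100 whole-series peaks, above the 3.42 to 4.01 of the 4 other autosomes. In replicate 1 it had 3.20 against 1.57 to 2.95, and in replicate 2 it had 1.67, below their 1.97 to 2.93. A fixed gap of 1 kb joins more peaks where peaks are denser. Clustering was not separated from density, either between chromosomes or between centre and arms. Of the 82 clusters, 38 included a peak found in both replicates, 20 touched no replicate 1 peak and 23 touched no replicate 2 peak. In 8 clusters every peak overlapped replicate 2 only, and in 7 every peak overlapped replicate 1 only.

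The clusters with the most peaks came from replicate 2. Those on ranks 1, 2 and 4, with 15 peaks from 7428019 to 7441692, 13 from 7415567 to 7426551 and 11 from 7405449 to 7414120, lie next to each other. With a smaller cluster they form a stretch of 46.7 kb, from 7405449 to 7452127, in which clusters are under 10 kb apart. It held 46 whole-series peaks, of which 45 overlapped a replicate 2 peak only, 1 overlapped neither list and none overlapped a replicate 1 peak. Replicate 2 had 34 peaks there, from 172 to 6452 bp wide and with a median gap of 79 bp, which covered 85.9% of the stretch. Their scores ranged from 54.16 to 3100, and the whole-series scores in the stretch had a median of 5.65 and a maximum of 79.95. Replicate 1 had no peak from 7387691, the end of the previous one, to 7498263, the start of the next one. In replicate 2 this nearly continuous block took 8.48% of the centre's peaks on 0.71% of its length. Without it the centre to arms ratio was 1.06 in replicate 2 and 1.92 in the whole-series list.

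Stretches chosen in the same way on the other chromosomes, as the chain of clusters with the most peaks, held fewer peaks. The next was on chromosome IV, with 34 peaks over 35.0 kb, of which 31 were found in replicate 2 only. Chromosome II had 23 over 16.3 kb, all in replicate 2 only, and chromosome I had 18, of which 17 were. Those on V and X went the other way. Of their 17 and 14 peaks, 10 and 12 were found in replicate 1 only and none in replicate 2 only. These are single stretches, each picked for its count, and their difference was not tested. The cluster on rank 3 of III, 12 peaks from 6566844 to 6575803, was also seen in replicate 2 only. There 11 of the 12 peaks fell inside a single replicate 2 peak of 7699 bp, at 6566768 to 6574466 with a score of 2821.7. The cluster on rank 5, with 10 peaks from 3843986 to 3852513, was mixed and had 1 peak in both lists, 1 in replicate 1 only, 2 in replicate 2 only and 6 in neither.

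Few peaks of III were found in both replicates. An overlap of at least 1 bp counted as found. Of the 1909 whole-series peaks, 216 overlapped a peak of both replicate lists (11.3%, 9.93 to 12.8), against 10.6% of the peaks on the 6 nuclear chromosomes. A further 406 overlapped replicate 1 only (21.3%, 19.5 to 23.2), against 23.8%, and 453 replicate 2 only (23.7%, 21.8 to 25.7), against 24.8%. The remaining 834 overlapped neither (43.7%, 41.4 to 45.9), against 40.9%. Each share on III was thus within 3 percentage points of the share over the 6 chromosomes, which include III. These intervals cover counting error over peaks only, and with depth unknown a missing peak may be a site below detection.

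Support rose with the whole-series score, which comes from the same series as the replicate lists and is not independent of them. Shares by score are given for III only. Among the highest-scoring 20% of the III peaks, 182 of 381 were in both lists (47.8%, 42.7 to 52.9) and 4 in neither (1.05%). Among the lowest-scoring 20%, 1 of 382 was in both (0.26%) and 292 in neither (76.4%, 71.9 to 80.6). Peaks in both lists had a median score of 26.33, those in replicate 1 only 8.04, those in replicate 2 only 8.46 and those in neither 4.41. The median widths of these 4 classes were 830.5, 424, 344 and 215 bp. Peaks in both lists were thus highest and those in neither lowest by either measure, while the 2 single-replicate classes changed places. A wide peak has more room to overlap another, and score and width were not separated here.

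The arms and the centre differed in which single replicate supported a peak. Peaks in both lists made up 10.4% of the left arm (7.0 to 14.6), 11.8% of the centre (10.0 to 13.7) and 10.6% of the right arm (7.79 to 14.0), with intervals that overlap. Peaks in replicate 1 only made up 11.1% of the left arm (7.62 to 15.5), 25.3% of the centre (22.9 to 27.8) and 15.8% of the right arm (12.4 to 19.7). For replicate 2 only the shares were 32.2% (26.7 to 38.2), 18.6% (16.4 to 20.8) and 33.8% (29.2 to 38.7). The interval of the centre was separate from that of either arm for both single-replicate classes. However, these intervals cover counting error over peaks only and each class rests on 1 library, so the contrast was not tested. Of the centre's 229 peaks in replicate 2 only, 45 lay in the stretch of 46.7 kb. Replicate 1 also had the larger share of its own peaks in the centre (73.9% against 51.6%). Peaks in neither list made up 46.3%, 44.4% and 39.8%.

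**Figure D4:**
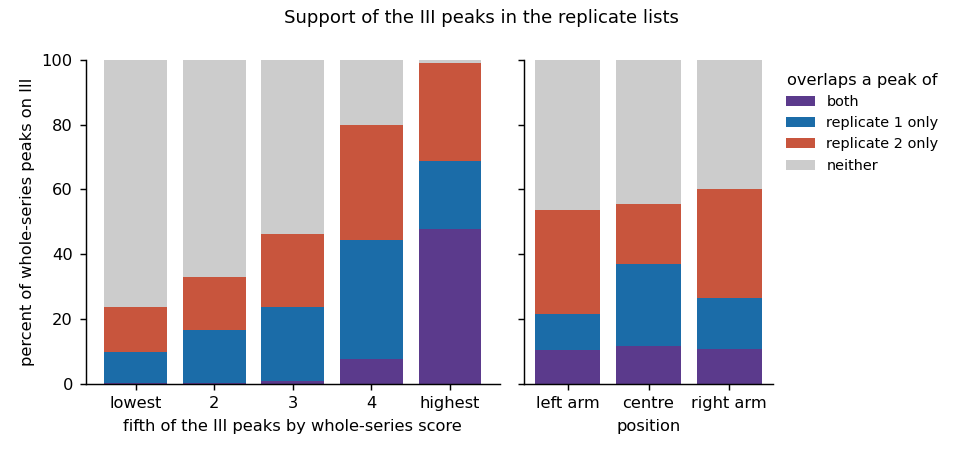
Percent of the whole-series peaks on III that overlap a peak of both replicate lists, of 1 list only or of neither, by 20% classes of the whole-series score (left) and by position (right). The class found in both reaches 47.8% in the highest-scoring class, while by position it stays between 10.4% and 11.8% and the 2 single-replicate classes change places between centre and arms.

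The replicate lists were also set against each other. Replicate 1 had 593 peaks on III, and 216 of them had a counterpart in replicate 2 (36.4%, 32.5 to 40.4). Among the 777 of replicate 2, 237 had one in replicate 1 (30.5%, 27.3 to 33.9). Over the 6 nuclear chromosomes these shares were 32.5% of the replicate 1 peaks and 26.5% of the replicate 2 peaks. In the left arm 28 of 55 replicate 1 peaks (50.9%, 37.1 to 64.6) had a counterpart in replicate 2, while 29 of 150 replicate 2 peaks (19.3%, 13.3 to 26.6) had one in replicate 1. In the centre the shares were 32.9% (28.5 to 37.5) of replicate 1 and 39.7% (34.8 to 44.6) of replicate 2. In the right arm they were 44.0% and 21.7%. Nearly all replicate 1 peaks on III, 586 of 593 (98.8%), overlapped the whole-series list, as did 688 of the 777 replicate 2 peaks (88.5%). Over the 6 nuclear chromosomes the shares were close to these, at 97.8% and 85.0%.

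Regions found in both replicates, taken as the union of their overlapping peaks, numbered 206 on III, of 1005 over all chromosomes. For comparison, III held 18.4% of the replicate 1 peaks, 18.5% of the replicate 2 peaks and 19.8% of the whole-series peaks. Of the 206 regions, 137 lay in the centre, 28 in the left arm and 41 in the right arm, which gives 20.7, 7.53 and 11.9 per Mb. Their density in the centre was 2.15 times that of the arms, and the right arm was 1.58 times as dense as the left. They were 265 to 7651 bp wide with a median of 775.5 bp and covered 1.59% of the chromosome. In 177 of the 206 regions a single peak of each replicate met. The replicate 1 part was the wider in 154 of 206, with medians of 641 bp in replicate 1 and 436 bp in replicate 2. In the right arm, however, it was the wider in 20 of 41. The score percentiles of the 2 replicates had a Spearman rho of 0.25 over the 206 regions, and 110 of them stood in the upper 50% of both lists. Neither value is given for the regions of other chromosomes.

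The 10 leading replicated regions, by the mean of their score percentiles, included 6 in the right arm, 4 in the centre and none in the left arm. The first was at 10504967 to 10507063 in the right arm, at percentiles of 98.7 in replicate 1 and 100 in replicate 2. A 5595 bp region at 10807056 to 10812650, also in the right arm, followed at 98.3 and 96.7. Here 1 replicate 1 peak met 5 replicate 2 peaks. The next 2 were at 13507824 to 13509691 in the right arm (95.1 and 99.9) and at 4488752 to 4492602 in the centre (98.4 and 96.2). The widest of the 10, at 3863887 to 3871537 in the centre with 7651 bp, stood at percentiles of 99.4 and 93.2. The other 5 were at 12536328 to 12538294, 11830251 to 11831494 and 11168823 to 11171449 in the right arm, and at 5195584 to 5197233 and 4592551 to 4594713 in the centre.

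By whole-series score, the strongest peaks of III stood below the strongest of other chromosomes. The highest score on III was 114.52, while the maxima of the 4 other autosomes lay between 143.15 and 181.93. None of the 25 highest-scoring peaks of the 6 chromosomes was on III (exact 95% interval up to 13.7%), and 11 of the highest 100 were (11.0%, 5.62 to 18.8). Of the highest 1000, 193 (19.3%, 16.9 to 21.9) were on III, close to its 19.8% of the whole list. The replicate lists differed in this respect. In replicate 2, 17 of the 777 peaks on III stood at or above 3100, the largest number of any chromosome. Chromosome X had 10 of 359, a larger share of its peaks. The highest replicate 2 score was on III, 3168.77, close to the 3167.96 of chromosome II. In replicate 1 chromosome III had 3 peaks at or above 3100 among its 593, fewer than any other chromosome. Scores tied at 3100 cannot be ranked against each other.

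The 25 highest-scoring whole-series peaks on III lay in the centre (12), the right arm (8) and the left arm (5). Their scores ran from 68.96 to 114.52 and their widths from 460 to 5899 bp with a median of 1435 bp. Of the 25, 18 overlapped both replicates, 6 replicate 2 only and 1 replicate 1 only. These counts were not set beside the highest-scoring peaks of other chromosomes. Midpoints of neighbours among them were 8.63 to 2238 kb apart, with a median of 344 kb. Their median percentile was 84.7 in the replicate 1 list, over the 19 with a peak there, and 97.5 in the replicate 2 list, over 24. No percentile in replicate 2 was under 82.1, whereas the lowest in replicate 1 was 5.63.

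The single highest-scoring peak, at 3896958 to 3897788 in the centre, is one of 3 among the first 6 that were strong in replicate 2 and weak in replicate 1. Its replicate 2 peak stood at 3100 (percentile 99.1) and its replicate 1 peak at 57.56 (percentile 8.03). The peak on rank 3, at 8344087 to 8344880 in the centre, scored 2901.8 in replicate 2 (98.1) and 62.12 in replicate 1 (12.8). The peak on rank 6, at 424565 to 426438 in the left arm, scored 3100 (99.1) and 55.02 (5.63).

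The other leading peaks down to rank 10, except that on rank 8, were high in both lists. That on rank 2, at 10505043 to 10507017 in the right arm, is the leading replicated region above, with scores of 2952.63 in replicate 1 and 3168.77 in replicate 2. Rank 4, 4017 bp at 3863734 to 3867750 in the centre, scored 3100 in replicate 1 and 865.35 in replicate 2, but the replicate 2 peak was 482 bp wide and the replicate 1 peak 3914 bp. A group of narrow peaks was more even in width. At 10758932 to 10759440 in the right arm (509 bp, rank 5) the replicate peaks were 592 and 450 bp wide, at percentiles of 84.7 and 90.6. At 13643252 to 13643844 in the right arm (593 bp, rank 7) they stood at 80.7 and 88.0, and at 7854082 to 7854874 in the centre (793 bp, rank 9) at 78.2 and 91.4. The peak on rank 8, at 10224459 to 10225893 in the centre, had a replicate 2 peak at 97.7 and none in replicate 1. Rank 10, 4210 bp at 4488445 to 4492654 in the centre, met 1 replicate 1 peak of 3851 bp and 4 replicate 2 peaks, at 98.4 and 96.2 for the highest of each.

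**Figure D5:**
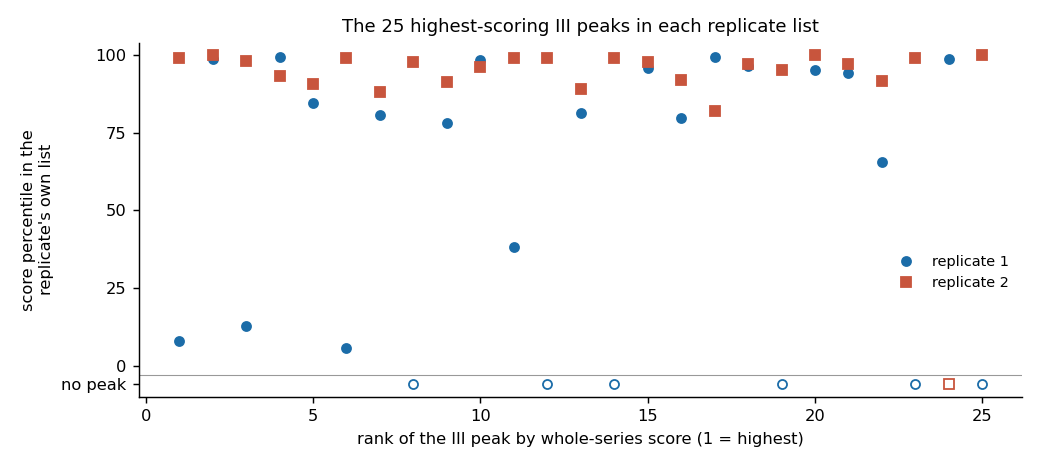
Score percentile in each replicate's own list for the 25 highest-scoring whole-series peaks on III, in order of whole-series score (circles, replicate 1; squares, replicate 2; open symbols, no overlapping peak). Replicate 2 values stay at 82.1 or higher where a peak exists, while replicate 1 values spread down to 5.63 and 6 peaks have none.

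The 3 widest whole-series peaks were not the strongest. The widest was 11772 bp at 321612 to 333383 in the left arm, ranked 85th on III with a score of 35.86. It met 2 replicate 2 peaks, the stronger of which scored 3100, and no replicate 1 peak. A peak of 8043 bp at 13584139 to 13592181 in the right arm scored 20.92 and met 4 replicate 2 peaks and none of replicate 1. The last of the 3, 7226 bp at 10807114 to 10814339 in the right arm, scored 45.96 and met 2 peaks of replicate 1 and 5 of replicate 2.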

How the data were processed

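The authors deposited 3 peak lists, 1 for each ChIP library and 1 for the whole series. Per the file headers all are on WormBase WS220, and per the file contents peaks were called with MACS in the per-sample lists and MACS v2 in the whole-series list. The submitters' processing notes name BWA and ce10. The sources used here do not give the way replicates were pooled in the whole-series list, nor the use of the inputs. The deposited score is of an unstated kind and on another scale in the whole-series list. Ties at 3100 in the per-sample lists involve 36 replicate 1 and 69 replicate 2 peaks. Scores are the authors' and served only for ranks inside each list; percentiles are over all chromosomes. Only the files' start, end and score were used.

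Peaks were compared by overlap, gap, density and width, with scipy 1.17.1, pandas 2.3.3 and numpy 2.4.6 under Python 3.11.15 (exact binomial intervals at 95%). Overlap counts were checked with bedtools 2.31.1, and the functions were tested on simulated data. No test was made, since each replicate is 1 list and peaks are not replicates. Regions were named by rule: the 25 highest scores, of which 10 with values, the 10 leading replicated regions, the 3 widest peaks, and the 5 densest windows, longest gaps and largest clusters. The chromosome and these rules were chosen with earlier results of these data known. Depth, genes and sequences were not analysed here.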

Additional observations from a re-analysis of the deposited data

How the results depend on the processing

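Of 39 alternative settings over 9 results, 17 stayed within the set limits (1.5 times for a count, the SD of the replicates or the binomial interval otherwise) and 22 moved. For the centre to arms ratio the replicates' SD is so wide that staying within it shows no stability. Of the settings, 5, on merging peaks within 1 kb and on leaving out the densest stretch, were chosen after seeing the data. The 1909 peaks became 1162 with peaks within 1 kb merged and 927 in the upper 50% of the list by score, in which the median gap of 2016.5 bp became 6288.5 bp. The right to left arm ratio of 1.62 became 1.29 with equal parts and 1.35 with peaks within 1 kb merged. The 82 clusters became 49 with a gap of 500 bp, 49 with at least 5 peaks and 163 with at least 3. The 11.3% found in both lists became 6.02% with 50% of both peaks shared, 20.2% within 1000 bp and 22.9% in the upper 50% of the whole-series list, and the 43.7% found in neither became 56.6%, 29.4% and 17.8%. The 206 replicated regions became 125 with 50% shared and 110 in the upper 50% of each list. With 1 replicate list alone, the median width was 336 to 565 bp, the centre to arms ratio 1.15 to 3.06, the right to left ratio 1.63 to 1.96, the median gap 5377 to 7389.5 bp and the share with no overlapping peak 65.0% to 67.4%. The centre stayed denser than the arms, and the right arm denser than the left, in each of these settings, except that the middle 33.3% was less dense than the outer parts (0.96) in replicate 2 alone without the densest stretch. The causes of these changes were not tested beyond what fewer peaks or fewer lists bring by construction. No paired analysis was possible because no comparison between groups was made: only the ChIP group has peak lists here. Depth is unknown, so what a deeper list would hold cannot be said.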

Other observations

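A whole-series peak lay at the left end of chromosome III. The right end was set by where the peaks stop, so a peak there follows from that choice and is no separate finding. The peak from base 1 to 225 scored 16.67 and was matched in replicate 1 (1 to 265, score 214.65) and replicate 2 (1 to 233, score 431.01). The last peak, at 13783355 to 13783723, scored 38.71 and ranked 74th on III, yet overlapped neither replicate list. The last peaks of the replicates ended 12.3 kb before its end in each list. It was the highest-scoring III peak found in neither list. The other 3 in the highest-scoring 20% were at 5108652 to 5109126 (score 15.04), 8293270 to 8293502 (14.8) and 9793662 to 9794137 (13.81), all in the centre. These 4 were picked after their values were seen.

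Most replicate peaks met a single whole-series peak. Of the 593 replicate 1 peaks on III, 527 met 1 whole-series peak, 58 met 2 to 4 and 1 met 6. Of the 777 replicate 2 peaks, 650 met 1, 36 met 2 to 4, and 2 met 5 or more. Those 2 were the peak at 6566768 to 6574466, which met 11, and the peak at 7415458 to 7421909, which met 6. The replicate 1 peak that met 6 lay at 10812668 to 10816351, next to the second replicated region named above. The replicate lists also contained neighbours with a gap of 1 bp, while no gap in the whole-series list on III was under 43 bp. Gaps under 200 bp numbered 124 of 776 in replicate 2, 26 of them inside the 46.7 kb stretch, and 58 of 592 in replicate 1.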
